A study of Mus musculus with 8 samples.

Results

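Polyamine metabolism was examined through 9 genes whose symbols were listed for 3 roles: synthesis (Odc1, Amd1, Srm and Sms), breakdown (Sat1 and Smox) and control by antizyme (Oaz1, Oaz2 and Azin1). All 9 had a row of their own among the 15288 genes of the raw count table. The cells, labelled IMCD, are a mouse line derived from the inner medullary collecting duct of the kidney, and their RNA was sequenced as 8 bulk libraries. All cells were grown in DMEM with 10% serum and then held for 12 h in the same medium without serum, either with nothing added (control, replicates 1 to 4) or with 100 mmol NaCl, an amount the labels give without a volume (NaCl, replicates 5 to 8). The study asked how such cells respond to hypertonic stress. It used a single cell line and a single time point, and nothing in the labels says whether the 4 libraries of a group came from separate cultures, so the p-values measure the spread between these libraries, which may be technical.

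Polyamines are small, positively charged amines that bind nucleic acids and are needed for translation and growth. Ornithine decarboxylase makes putrescine from ornithine, and aminopropyl groups taken from decarboxylated S-adenosylmethionine then turn putrescine into spermidine and spermidine into spermine. Acetylation or oxidation sends spermine and spermidine back towards putrescine. Antizyme proteins bind ornithine decarboxylase and deliver it to the proteasome without ubiquitin, and antizyme inhibitors release it. Much of this control acts on translation and protein turnover, which RNA counts do not measure.

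Transcripts of 2 of 4 synthesis genes and of both breakdown genes were lower with NaCl, while antizyme transcripts did not pass the test in either direction. Odc1 fell to 0.677 of its control level (95% interval 0.639 to 0.718) and Srm to 0.693 (0.604 to 0.796). Of the catabolic genes, Sat1 fell to 0.844 (0.791 to 0.900) and Smox to 0.904 (0.846 to 0.966). The sizes of these falls were not tested against that of Srm, and their order turned when the library number was added as a linear term, with log2 fold changes of -0.44 for Sat1, -0.34 for Smox and -0.26, no longer called, for Srm. A gene was called where edgeR's quasi-likelihood test gave a Benjamini-Hochberg adjusted p below 0.05, the adjustment running over every gene tested. By this threshold 4 of the 9 genes were called, all of them lower (44.4%). Of all 14024 genes tested, 34.1% passed this threshold, 17.2% lower and 16.9% higher. None of the 9 genes was higher at that threshold with edgeR, DESeq2 or limma-voom, nor at an unadjusted p-value under 0.05 with any of these tools (0 of 9). The median log2 fold change was -0.14 over the 9 genes and 0.00 over all genes tested (0.0029 before rounding). In bulk RNA, fewer cells that express a gene and less of its RNA per cell cannot be told apart.

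The libraries held 41768063 to 47565623 counts in the control group and 35286796 to 42394487 in the NaCl group. Levels are given as CPM, the usual count relative to library size, here the library total adjusted with TMM factors, with the SD over 4 libraries. Among defining markers of the labelled cell type, the water channel gene Aqp2 had at most 15 counts, the vasopressin receptor gene Avpr2 at most 48 and Aqp3 at most 28 in any library. Aqp2 lay at 0 to 0.0725 CPM in control and 0.189 to 0.364 CPM in NaCl libraries, and Avpr2 at 0 to 0.266 and 0.378 to 1.16 CPM, without overlap between the groups. The other 3 of the 6 collecting duct markers listed were more abundant than Aqp2, Avpr2 and Aqp3 in both groups. Elf3 lay at 37.6 to 48.7 CPM in control and 42.4 to 60.7 CPM in NaCl libraries. The sodium channel gene Scnn1a lay at 1.89 to 2.42 and 2.14 to 2.76 CPM, and for both genes the groups overlapped. Gata3 lay at 7.49 to 9.31 CPM in control and 5.72 to 6.48 CPM in NaCl libraries, lower with NaCl and without overlap. Of 5 general epithelial markers, the cadherin gene Cdh1 had at most 30 counts, while Epcam lay at 24.6 to 31.4 CPM, Krt8 at 90.2 to 122 CPM, Krt18 at 187 to 245 CPM and Krt19 at 40.3 to 90.4 CPM. All 4 fibroblast markers listed had rows, with summed levels of 2716 to 3142 CPM in control and 2342 to 2764 CPM in NaCl libraries, most of it Col1a1, while Pdgfra was at most 2.85 CPM. Of 3 leukocyte markers, Ptprc lay at 3.63 to 4.47 CPM in control and 12.98 to 14.03 CPM in NaCl libraries, Cd68 at 1.93 to 2.72 and 1.31 to 2.03 CPM, and Cd3e had no row, so that the summed level of 5.95 to 7.19 against 14.9 to 15.3 CPM was higher through Ptprc alone. Of 3 proximal tubule markers, Lrp2 lay at 152 to 203 CPM, Slc5a2 had at most 11 counts and Slc34a1 had no row. The part of these markers in the results for the polyamine genes was not tested.

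Odc1 (ENSMUSG00000011179, plus strand, chr12:17544794-17551505 in GRCm38, the assembly also called mm10) encodes ornithine decarboxylase, the enzyme that opens the pathway. It had 189, 182, 169 and 175 CPM in the control libraries, in the order of replicates 1 to 4, while NaCl replicates 5 to 8 had 124, 120, 116 and 125 CPM. Every NaCl library lay well below every control library. The mean of Odc1 fell from 179 ± 8.83 CPM in control to 121 ± 3.85 CPM with NaCl (SD, n = 4 each). Its log2 fold change, -0.56 (SE 0.040; edgeR adjusted p = 1.43e-08), was the largest in size of the 9 genes, with an interval that overlapped that of Srm. It kept its direction and its call in all 19 other fits, with log2 fold changes from -0.59 to -0.47. Over 7.38% of its transcript Odc1 is identical at 98% or more to another annotated gene, which had no row in the table.

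Amd1 (ENSMUSG00000075232, minus strand, chr10:40287458-40302186) encodes S-adenosylmethionine decarboxylase, which supplies the aminopropyl groups. Its control values were 76.4, 76.7, 75.8 and 71.7 CPM and its NaCl values 77.3, 75.7, 72.3 and 70.3 CPM, so the groups lay over each other. The log2 fold change was -0.02 (SE 0.042; edgeR adjusted p = 0.700), and the 95% interval of the fold ran from 0.924 to 1.046. Amd1 shares 99.8% of its transcript with Amd2 and 2 pseudogenes, so its reads could not be assigned with certainty. Amd2 held 2 to 4% of the counts given to the pair.

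Srm (ENSMUSG00000006442, plus strand, chr4:148591503-148594993) encodes spermidine synthase, which adds an aminopropyl group to putrescine. It had control values of 61.7, 55.5, 49.3 and 43.9 CPM, while NaCl replicates 5 to 8 had 35.9, 35.1, 35.6 and 39.4 CPM. The groups did not overlap, but the controls were spread far more widely than the NaCl libraries, and control replicate 4 came close to NaCl replicate 8. The mean of Srm fell from 52.6 ± 7.68 CPM in control to 36.5 ± 1.96 CPM with NaCl (SD, n = 4 each), which is -0.53 on the log2 scale (SE 0.091; edgeR adjusted p = 0.000908). The sample labels number the libraries 1 to 8, and with that number as a linear term beside the group the log2 fold change was -0.26 (SE 0.178) and the call was lost (adjusted p = 0.358). Since controls are numbered 1 to 4 and NaCl libraries 5 to 8, such a trend and the group can be told apart only in part.

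Sms (ENSMUSG00000071708, minus strand, chrX:157443855-157492287) encodes spermine synthase, which adds the next aminopropyl group to spermidine. Control values were 46.4, 45.6, 45.5 and 40.4 CPM and NaCl values 41.5, 42.8, 42.1 and 39.7 CPM. Control replicates 1 to 3 were above all NaCl libraries, and control replicate 4 lay among them. The log2 fold change was -0.10 (SE 0.052; edgeR adjusted p = 0.154), with an interval of the fold from 0.864 to 1.007. Without control replicate 4 the log2 fold change was -0.15 and passed (adjusted p = 0.0322). With the library number as a linear term it was 0.07 (adjusted p = 0.676). Sms shares 29.6% of its transcript with a pseudogene that had no row in the table.

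**Figure D1:**
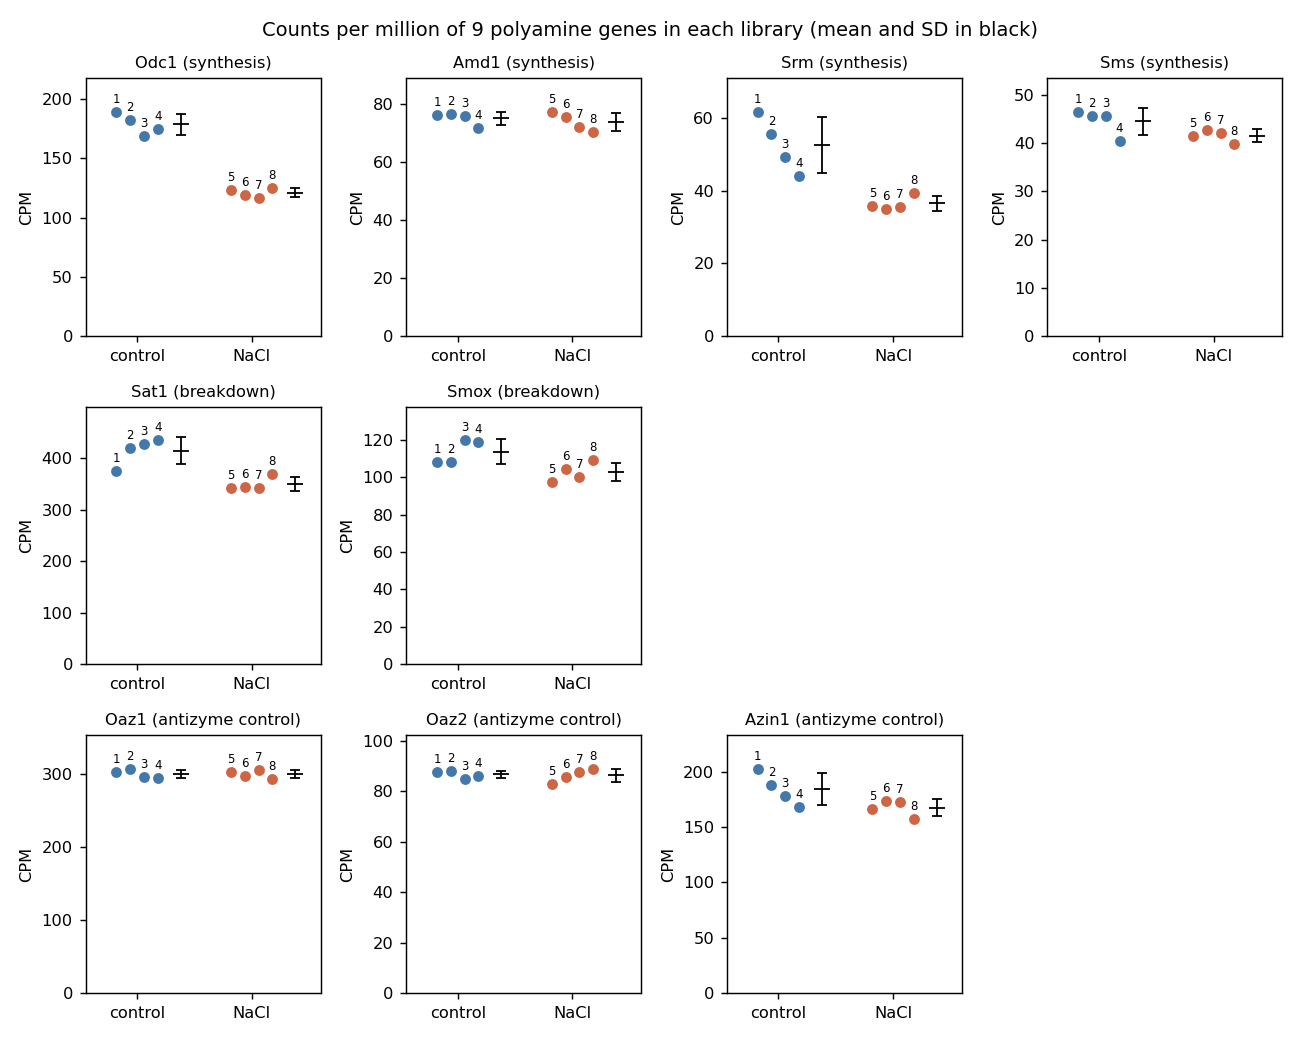
Level of each of the 9 polyamine genes in CPM (vertical axis, from 0) in every library, with points numbered by replicate, control in blue and NaCl in orange, and black marks for the mean and SD of 4 libraries. Odc1, Srm and Sat1 have all NaCl points below all control points, whereas Oaz1 and Oaz2 lie at the same height in both groups.

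Sat1 (ENSMUSG00000025283, minus strand, chrX:155213132-155216449) encodes spermidine/spermine acetyltransferase, whose acetylated products are exported or oxidised. It had control values of 376, 420, 427 and 434 CPM, while NaCl replicates 5 to 8 had 343, 343, 342 and 369 CPM. The groups did not overlap, although control replicate 1 was close to NaCl replicate 8. The mean of Sat1 fell from 414 ± 26.3 CPM in control to 349 ± 13.3 CPM with NaCl (SD, n = 4 each), which is -0.25 on the log2 scale (SE 0.044; edgeR adjusted p = 0.000398). With the library number as a linear term its log2 fold change was -0.44 (adjusted p = 3.16e-07), a change in the value by more than 1.5 times.

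Smox (ENSMUSG00000027333, plus strand, chr2:131491496-131525922) encodes spermine oxidase, which turns spermine directly into spermidine and releases hydrogen peroxide. Control values were 108, 108, 120 and 119 CPM (108.0, 108.0, 119.5 and 118.9 before rounding) and NaCl values 97.6, 104, 99.8 and 109 CPM. NaCl replicate 8 was above control replicates 1 and 2, so the groups overlapped. The mean of Smox fell from 114 ± 6.46 CPM in control to 103 ± 5.01 CPM with NaCl (SD, n = 4 each), which is -0.15 on the log2 scale (SE 0.046; edgeR adjusted p = 0.0204). Leaving out control replicate 3 (adjusted p = 0.0698) or 4 (0.0536), or NaCl replicate 5 (0.0644) or 7 (0.0656), ended the call. With the library number as a linear term the log2 fold change was -0.34 (adjusted p = 3.07e-04).

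Odc1, Srm and Sat1, 3 of the 9 genes, thus had all NaCl libraries below all control libraries, which held for 16.9% of all genes tested.

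The antizyme genes carry a signal of their own in the coding sequence. Their reading frame ends early at a TGA stop, and polyamines raise the share of ribosomes that skip a base there and continue in the next frame to make full-length antizyme. GENCODE M21 records this as a gap of 1 base between coding segments, at chr10:80828295 in Oaz1 and at chr9:65686272 in Oaz2. The 61 bases around each site, at chr10:80828265-80828325 and chr9:65686242-65686302 on the plus strand of GRCm38, are shown because the amount of antizyme depends on this site as well as on the RNA level. Capitals mark the last codon read before the stop and the stop itself.
Oaz1: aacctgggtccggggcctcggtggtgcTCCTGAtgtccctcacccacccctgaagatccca
Oaz2: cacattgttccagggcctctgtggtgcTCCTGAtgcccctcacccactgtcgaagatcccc
The 6 marked bases were the same in both genes, and 49 of the 61 positions (80.3%) were identical. How often ribosomes shift here was not measured.

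Oaz1 (ENSMUSG00000035242, plus strand, chr10:80826656-80829290) encodes antizyme 1, the main brake on ornithine decarboxylase and on polyamine uptake. It had 304, 308, 297 and 295 CPM in control and 303, 298, 306 and 294 CPM in NaCl libraries, and the ranges coincided. Means were 301 ± 5.84 and 300.2 ± 5.39 CPM (SD, n = 4 each; log2 fold change 0.00, that is -0.0029, SE 0.031; edgeR adjusted p = 0.955). The 95% interval of the fold, 0.953 to 1.045, did not reach the fold of any of the 4 genes that passed. Oaz1 shares 63.6% of its transcript with a pseudogene that had no row in the table.

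Oaz2 (ENSMUSG00000040652, plus strand, chr9:65668001-65690300) encodes antizyme 2, a second and less abundant antizyme. It had 87.8, 88.1, 85.1 and 86.3 CPM in control and 83.1, 85.9, 87.9 and 88.9 CPM in NaCl libraries, and the groups overlapped throughout. The log2 fold change was -0.005 (SE 0.037; edgeR adjusted p = 0.934; interval of the fold 0.945 to 1.051), and 25.6% of its transcript is shared with a pseudogene that had no row.

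Azin1 (ENSMUSG00000037458, minus strand, chr15:38487427-38519266) encodes antizyme inhibitor 1, a relative of ornithine decarboxylase without its activity that binds antizyme in its place. Control values were 203, 189, 178 and 169 CPM (202.8, 188.5, 178.2 and 168.6 before rounding) and NaCl values 167, 174, 173 and 157 CPM. Control replicate 4 lay inside the NaCl range, and control replicates 1 to 3 lay above it. The log2 fold change was -0.14 (SE 0.052; edgeR adjusted p = 0.0526), just outside the threshold, with an interval of the fold from 0.842 to 0.981. DESeq2 called Azin1 (adjusted p = 0.0435), as did edgeR with median-of-ratios size factors (0.0479), without control replicate 4 (-0.18; 0.00669) and after adding the library number, centred in either group, as a covariate (0.00115). With the number as a linear term across both groups the log2 fold change was 0.10 (adjusted p = 0.337). None of the 3 antizyme control genes was called by edgeR, where 1 of 3, Azin1, had an unadjusted p-value under 0.05.

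Ratios between members within a library do not depend on how libraries are scaled, and 5 were compared. Each is the log2 of 1 count over another, not corrected for length, and was tested by an exact two-sided permutation test with Benjamini-Hochberg adjustment over the 5 ratios. Between 4 and 4 libraries this test can give no p-value below 0.0286. At this floor the adjusted p-value depends on how many of the 5 chosen ratios reach it, and Odc1 is part of more than 1 ratio. The ratio of Odc1 to Oaz1, enzyme over antizyme, was -0.68, -0.76, -0.81 and -0.76 in the control libraries and -1.30, -1.32, -1.39 and -1.24 in the NaCl libraries. All NaCl values were lower, by 0.56 on average (a difference of -0.558; exact permutation p = 0.0286, adjusted 0.0476), so Odc1 counts went from 0.594 to 0.403 per Oaz1 count. The ratio of Azin1 to Oaz1 differed by -0.13, with 1 control library inside the NaCl range (exact permutation p = 0.0571, adjusted 0.0714).

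The ratio of Sat1 to Odc1, acetylation over the opening step of synthesis, was 0.989, 1.204, 1.336 and 1.314 in control and 1.47, 1.52, 1.56 and 1.57 in NaCl libraries. Every NaCl library had a higher ratio than every control library. With the library number as a linear term, however, the log2 fold changes of the genes themselves lay close together, -0.47 for Odc1 and -0.44 for Sat1, and the ratio was not tested with that term. The difference was 0.317 (exact permutation p = 0.0286, adjusted 0.0476), from 2.32 to 2.88 Sat1 counts per Odc1 count. The ratio of Sms to Srm, spermine over spermidine synthase, was -0.41, -0.28, -0.12 and -0.12 in control and 0.21, 0.29, 0.24 and 0.01 in NaCl libraries, again without overlap (difference 0.419; exact permutation p = 0.0286, adjusted 0.0476). Control replicate 1 was the lowest value of both of these ratios, and without it the differences were 0.243 and 0.360. The ratio of Smox to Sms overlapped between the groups (difference -0.05; exact permutation p = 0.686, adjusted 0.686). With 3 libraries in a group the smallest p-value is 0.0571, so no ratio could pass when a library was left out.

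**Figure D2:**
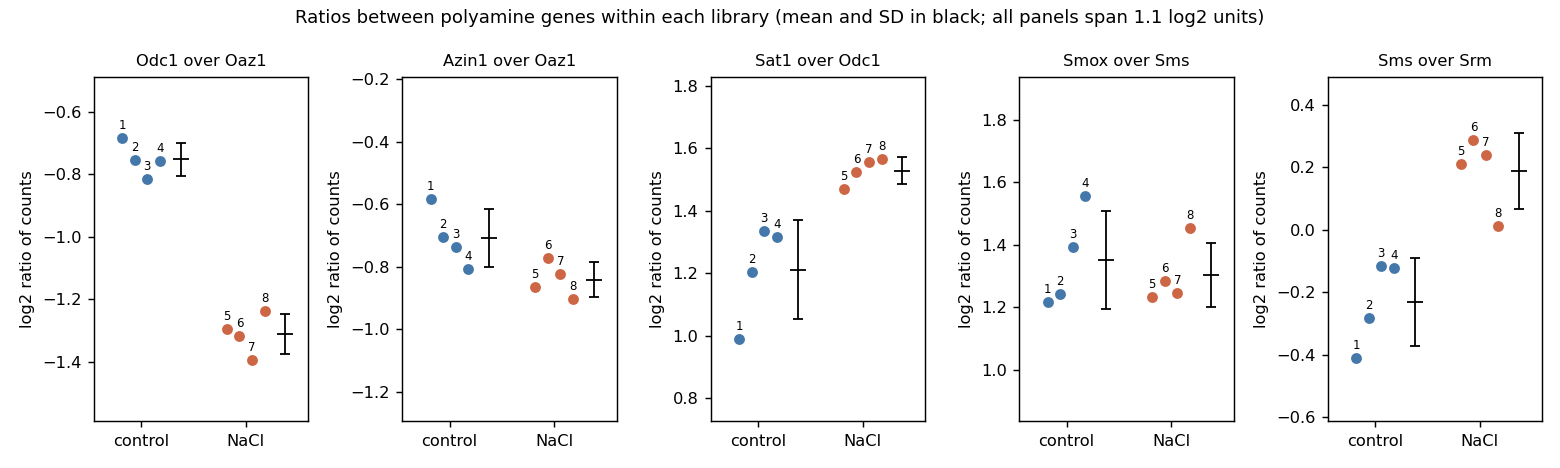
Log2 ratio of raw counts of a pair of polyamine genes within each library (vertical axes, each spanning 1.1 log2 units), with points numbered by replicate and black marks for mean and SD. Control and NaCl points are separate for Odc1 over Oaz1, Sat1 over Odc1 and Sms over Srm, and mixed for Azin1 over Oaz1 and Smox over Sms.

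Levels of different genes were compared per kilobase of exon, the union of exons in the GENCODE basic annotation. Sat1 had the highest level in control libraries, 350 ± 22.3 CPM per kilobase (SD, n = 4), followed by Oaz1 with 280 ± 5.44 (280.1 before rounding). Odc1 came next at 80.96 ± 3.997 CPM per kilobase. Oaz2 (42.7 ± 0.684), Srm (39.3 ± 5.74), Azin1 (36.7 ± 2.91) and Smox (36.7 ± 2.09) formed a middle group, in which Srm overlapped each of the others over its libraries. Amd1 (23.5 ± 0.731) and Sms (11.97 ± 0.745) were lowest. In NaCl libraries Sat1 (295 ± 11.2) and Oaz1 (279.6 ± 5.02) lay closer together but did not overlap, Odc1 was at 54.8 ± 1.74 and still the next, and Srm, at 27.3 ± 1.47, was below Azin1 (33.4 ± 1.53) and Smox (33.1 ± 1.62). Scaled by the median length of coding transcripts instead, Smox was at 59.2 CPM per kilobase in control and ranked above Oaz2 (47.2), so its place depends on the length used. With those lengths Srm (39.3) was already below Azin1 (40.6) and Smox in control, and its rank was 7 in both groups. Sat1, Srm, Azin1 and Smox had no stretch shared with another annotated gene. Odc1, Amd1, Sms, Oaz1 and Oaz2 did, so some of their reads may be assigned elsewhere, and the effect on this order was not tested.

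**Figure D3:**
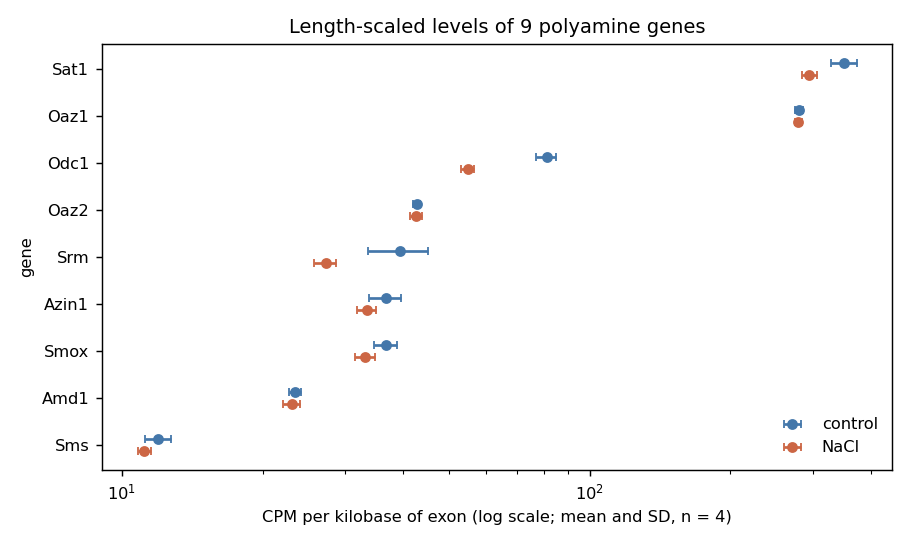
Level of each polyamine gene in CPM per kilobase of exon (horizontal log axis), mean and SD of 4 libraries, control in blue and NaCl in orange. Sat1 and Oaz1 are several times above the rest in both groups, and Odc1 and Srm show the widest gaps between the groups.

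The sequences before the start sites of Odc1 and Sat1 are shown because they are the 2 members with the smallest adjusted p-values. RefSeq promoter windows (GRCm38.p6) were found for 7 of the 9 genes, with none for Srm and Azin1, and a pair of windows for Sms. The 250 bases before the RefSeq start are at chr12:17544623-17544872 on the plus strand for Odc1 and at chrX:155216450-155216699 on the minus strand for Sat1. The GENCODE model of Odc1 starts earlier, at chr12:17544794, inside this window. The end of the Odc1 window, including its last stretch in capitals, thus lies within that gene model. Capitals mark GC boxes (GGGCGG on either strand), which bind Sp1-type factors.
Odc1: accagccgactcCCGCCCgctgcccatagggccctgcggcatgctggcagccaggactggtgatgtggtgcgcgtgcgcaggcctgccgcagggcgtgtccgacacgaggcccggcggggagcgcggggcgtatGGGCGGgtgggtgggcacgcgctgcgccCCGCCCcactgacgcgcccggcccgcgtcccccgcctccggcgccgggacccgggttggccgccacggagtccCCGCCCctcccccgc
Sat1: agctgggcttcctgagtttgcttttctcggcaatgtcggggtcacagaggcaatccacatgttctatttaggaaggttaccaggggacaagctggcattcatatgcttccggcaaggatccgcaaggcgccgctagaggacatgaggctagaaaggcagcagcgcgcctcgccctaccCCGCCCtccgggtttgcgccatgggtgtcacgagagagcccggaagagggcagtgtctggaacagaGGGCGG
The Odc1 window held 4 GC boxes with a GC content of 80% (80.0), and the Sat1 window 2 with a GC content of 59.6%. GC boxes were also in the windows of Smox (6), Oaz2 (3) and Amd1 (1) and in 1 Sms window (4), and absent from that of Oaz1. They were therefore not confined to genes called lower. A GC box was present in 32.7% of all 32851 windows of that length. The E-box CACGTG, bound by Myc and related factors, was in neither window, and of the 7 genes it occurred only in 1 Sms window, against 6.02% of all windows. The TonE motif, bound by the tonicity factor Nfat5, was in none of these windows, against 4.31% of all. All motifs were searched on both strands of the 250 bases before the start, and sites elsewhere in or around the genes were not searched. No matches overlapped in the Odc1 and Sat1 windows, while GC boxes overlapped each other in 1 Sms window.

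Around the core pathway, 26 further genes were tested. Of these, 14 passed the edgeR threshold (53.8%), against 34.1% of all genes tested. Of the 26, 6 were higher and 8 lower, where 16.9% of all genes tested were higher and 17.2% lower, and the median over the 26 was -0.05 on the log2 scale. Agmat, Atp13a4, Satl1 and Oaz3 were also listed and had no row.

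In the supply of arginine and ornithine, 1 of 4 tested genes was higher and 1 lower. Ass1 (argininosuccinate synthase, which makes the precursor of arginine) had 54.1, 49.7, 55.3 and 52.6 CPM in control and 24.2, 24.3, 27.1 and 24.3 CPM in NaCl libraries. That is a fold of 0.472 (log2 fold change -1.08, SE 0.055; edgeR adjusted p = 2.54e-10), the largest change in either list, with 73.1% of its transcript shared with a pseudogene, Gm5424, that had no row. Oat (ornithine aminotransferase, which links ornithine to glutamate and proline) rose from 416 ± 22.8 to 464 ± 18.4 CPM (SD, n = 4 each; adjusted p = 0.00683), and lost the call with the library number as a linear term (0.761).

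Spermidine and spermine synthesis release methylthioadenosine, and 7 genes for making S-adenosylmethionine or salvaging that by-product were listed, of which 2 were higher and 3 lower. Mtap (methylthioadenosine phosphorylase, the opening step of salvage) had 75.3, 72.0, 61.6 and 55.8 CPM in control and 47.8, 46.4, 46.4 and 42.6 CPM in NaCl libraries. Like Srm, it was widely spread among controls without overlap between the groups (log2 fold change -0.53, SE 0.086; edgeR adjusted p = 6e-04), and it lost the call with the library number as a linear term (-0.11; 0.444). Enoph1 and Adi1, which encode later enzymes of the salvage, fell to 0.810 and 0.822 (adjusted p = 0.00322 and 7.89e-05). With that linear term Enoph1 lost the call (0.83) and Adi1 kept it (0.0318). The higher genes were Mri1, a salvage isomerase (1.16-fold), and Mat2b, a subunit of the S-adenosylmethionine synthetase (1.09-fold, adjusted p = 0.0487), which are named here after their values were seen. Mat2b lay just inside the threshold. Neither gene was followed singly in the other fits, where the whole pathway list had 5 higher genes with DESeq2 or limma-voom, against 6 with edgeR.

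Hypusine is an amino acid built from spermidine on translation factor eIF5A alone. Of 4 genes listed for it, 1 was higher and 2 lower. Eif5a, which encodes the factor, had 638, 641, 575 and 555 CPM in control and 460, 460, 469 and 462 CPM in NaCl libraries (459.6 and 459.7 for the pair at 460), a fold of 0.768 (edgeR adjusted p = 4.51e-06) without overlap. Its less abundant relative Eif5a2 fell to 0.862 (adjusted p = 0.0169), a call lost without control replicate 2 (0.0623) and with the library number as a linear term (0.37). Dhps, the enzyme that transfers the spermidine part, rose 1.11-fold (adjusted p = 0.0253), a call that ended when control replicate 3 (0.0747) or 4 (0.0626), or NaCl replicate 5 (0.0806) or 8 (0.0573), was left out. Dohh, which completes the modification, did not pass (fold 1.04, interval 0.964 to 1.12), and shares 67.4% of its transcript with another annotated gene.

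Among 4 tested carrier genes, Atp13a2, a lysosomal pump that exports polyamines to the cytosol, had 59.1, 59.6, 57.6 and 58.8 CPM in control and 72.9, 74.2, 71.0 and 70.6 CPM in NaCl libraries. All NaCl libraries were above all controls, a fold of 1.23 (log2 fold change 0.30, SE 0.038; edgeR adjusted p = 1.59e-05), and the call held in all 19 other fits. Slc3a2, the heavy chain of amino acid exchangers linked to polyamine export, fell to 0.935 (adjusted p = 0.0276). That call ended without control replicate 1 (0.069) or 2 (0.0506), without NaCl replicate 5 (0.06) or 8 (0.0585), with library totals alone (0.0639) and with the library number as a linear term (0.681). Atp13a3 (1.03-fold, interval 0.980 to 1.09) and Slc18b1 (0.853-fold, interval 0.718 to 1.01) did not pass.

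Of the 5 tested genes for further enzymes and antizyme factors, Sat2 alone was higher and none was lower by edgeR, DESeq2 or limma-voom. At an unadjusted p-value under 0.05 each of these tools gave 2 higher genes, Sat2 and Aoc1, and 0 lower. Sat2, a relative of Sat1 with little activity on polyamines, rose 1.58-fold from the low level of 2.54 ± 0.349 to 4.01 ± 0.501 CPM (SD, n = 4 each; edgeR adjusted p = 0.00328). Paox, Aoc1, Azin2 and Amd2 did not pass. Of the regulators, Myc, a known activator of Odc1, fell to 0.895 with control values of 50.4 to 54.7 CPM and NaCl values of 43.2 to 50.1 CPM (adjusted p = 0.022). Leaving out control replicate 4 (0.0631) or NaCl replicate 5 (0.0711), 6 (0.0522) or 7 (0.0547) ended that call. With the library number as a linear term, Myc (-0.36), Dhps (0.25) and Eif5a (-0.24) kept their calls with log2 fold changes that had moved by more than 1.5 times. Its partner Max had a fold of 0.996 (interval 0.939 to 1.06).

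**Figure D4:**
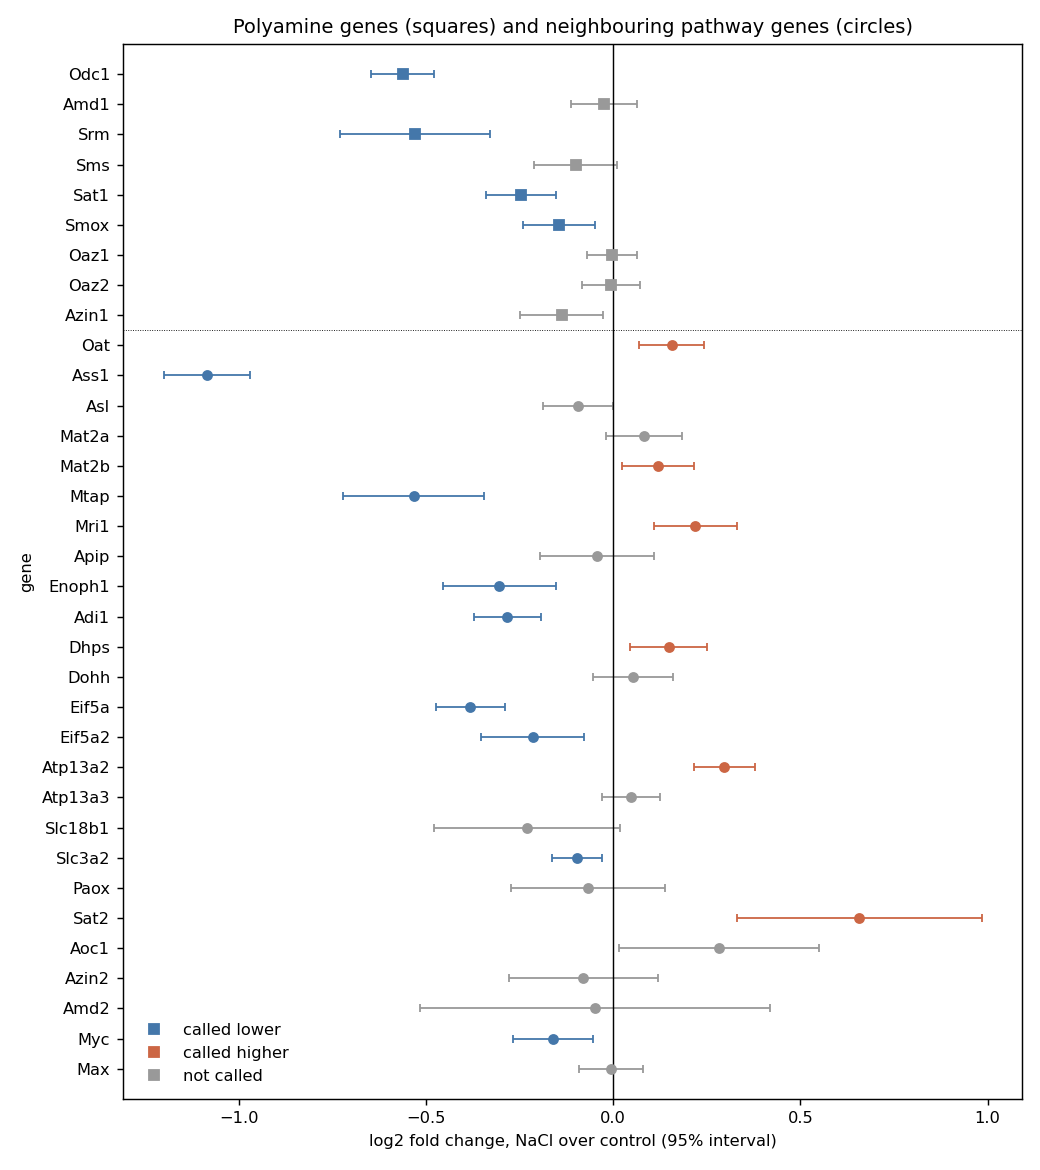
Log2 fold change of NaCl over control with its 95% interval (horizontal axis) for 9 polyamine genes (squares) and 25 of the 26 tested neighbouring pathway genes (circles), with called genes in blue (lower) or orange-red (higher) and the rest in grey. The gene left out is not reported singly here. Odc1, Srm, Mtap and Ass1 lie furthest to the left, Sat2 furthest to the right, and Oaz1 and Oaz2 have narrow intervals around 0.

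The genes whose pattern over the 8 libraries was most like that of Odc1 were sought among 10079 candidates outside both lists, each averaging 3 or more in log2 CPM. They were Ttl (Pearson r = 0.996), Kars (0.994) and Hsp90ab1 (0.994), which encode tubulin tyrosine ligase, lysyl-tRNA synthetase and a cytosolic heat shock protein. Their log2 fold changes were -0.48, -0.22 and -0.32. The 8 points fall into the 2 groups and share library depth, so r mainly describes that separation and is given without a p-value.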

How the data were processed

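Processing started from 2 tables for 8 libraries. Raw counts per Ensembl gene were deposited by the authors. Their normalized values, a signal deposited by the authors, were these counts over 1 scaling factor for each library (0.864 to 1.145). Trim Galore 0.6.7, STAR, DESeq2 1.34.0 and mm10 are named per the submitters' processing notes, and the counting program and strandedness are not given in the sources used here. The lowest gene total was 19.

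Counts were fitted in R 4.3.3 with edgeR 4.0.16 (filterByExpr at a minimum count of 10, TMM, robust quasi-likelihood, group as the single term, 14024 genes, Benjamini-Hochberg over all of them). Intervals cover the spread between libraries only. The biological coefficient of variation was 6.39%. DESeq2 1.42.0 and limma 3.58.1 served as alternatives, with other scalings, filters, library-number terms and left-out libraries. Ratios used counts plus 0.5 and exact permutation in scipy 1.17.1. Lengths, coordinates and the antizyme sites came from GENCODE M21 (GRCm38), shared sequence from blastn 2.17.0 (at least 75 bases at 98% identity) and promoters from RefSeq.

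The genes and lists were chosen with earlier results of these data known. Some listed pathway genes are not reported singly here. By rule, the text named the 9 genes, up to 3 called genes per pathway group with the highest absolute log2 fold change, and the 3 genes most like Odc1. Outside this rule, Mri1, Mat2b, Dohh, Atp13a3, Slc18b1, Paox, Aoc1, Azin2, Amd2 and Max were named after their values were seen. On simulated counts of 14028 genes, 63.1% of 84 genes changed 1.2-fold and all 60 changed 1.5-fold were recovered, and 6.63% of 181 calls were false. The simulation gave every gene the same dispersion and changed only genes above a minimum level. It also changed far fewer genes than were called in the data, so these shares may not carry over to the data.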

Additional observations from a re-analysis of the deposited data

Results flagged for a closer look

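Over 52 sets of 4 values, 3 had a highest or lowest library set far apart from the rest by Dixon's criterion, and chance alone gives about 2.6. Sms had 40.39 CPM in control replicate 4, where the other controls had 45.53 to 46.44 CPM. Sat1 had 369.1 CPM in NaCl replicate 8, where the others had 342.1 to 343.3 CPM. Ass1 had 27.1 CPM in NaCl replicate 7, where the others had 24.16 to 24.31 CPM.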

How the results depend on the processing

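The number of polyamine genes called was 4 and lay between 3 and 5 in the 20 alternatives. Odc1 and Sat1 kept direction and call in all 19 refits. With the library number as a linear term, Srm was not called (-0.26), Amd1 (0.13), Sms (0.067), Oaz1 (0.051) and Azin1 (0.10) reversed without a call, and 8 of the 26 pathway genes were called in place of 14. An adjusted p threshold of 0.01 gave 9 pathway genes and 3145 genes in all. Library totals alone reversed Oaz1 (0.008) and Oaz2 (0.005), which have no call. Leaving out both libraries of extreme depth, control replicate 1 and NaCl replicate 5, was added after the data had been seen. It left 4 polyamine and 10 pathway genes called and reversed Oaz2 (0.019). Among the pathway genes followed singly in the refits, it ended the calls of Dhps, Slc3a2 and Myc. Higher pathway calls went from 6 to 4, so the list of lost calls is not complete, and Mri1 and Mat2b were not followed singly. Azin1 passed with median-of-ratios factors (-0.14), DESeq2 (-0.14) and the number centred within groups (-0.13). Leaving out 1 library gave log2 fold changes from -0.048 to -0.003 for Amd1, -0.146 to -0.081 for Sms, -0.18 to -0.12 for Smox, -0.014 to 0.005 for Oaz1, -0.021 to 0.013 for Oaz2 and -0.18 to -0.091 for Azin1. Ratio differences ranged from -0.58 to -0.53 (Odc1 to Oaz1), 0.24 to 0.36 (Sat1 to Odc1), 0.36 to 0.48 (Sms to Srm) and -0.097 to 0.021 (Smox to Sms). The causes were not tested. limma-voom also called 4789 genes in all, of which 4679 were shared with edgeR. No paired analysis was possible because the groups share no replicate numbers. With 4 libraries per group, changes near 1.2-fold were recovered in part.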
